A study of Danio rerio with 12 samples.

Results

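Retained introns of 100 bp or less were examined in whole zebrafish embryos that were mutant for 1 of 3 RNA-processing genes. Members were taken from the authors' 3 retained-intron tables, each of which compared 1 mutant with the same wild-type controls. An intron was a member when the gap between its flanking exons was 100 bp or less and when its inclusion and skipping reads together averaged at least 10 per library. This gave 353 of 675 introns that met the read minimum in the snapc3 table, 351 of 677 in the lsm8 table and 356 of 675 in the tnpo3 table. The tables list 390, 388 and 394 introns of this length before the read minimum. Across the tables there were 370 members in 351 genes, and 339 were members in all 3. All of them had at least 1 read of each form over a table and were tested.

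The study came from genetic screens for T lymphocyte development in zebrafish. It sequenced ribosome-depleted, strand-specific total RNA of 12 libraries, with 3 libraries in each of 4 groups. The controls were wild type, with 1 library each of the mixed backgrounds A, B and C. The snapc3-/- embryos had mixed background A, the lsm8-/- embryos background B and the tnpo3-/- embryos background C, with 3 libraries each, so each mutant group shares its background with 1 control library. Which control column that is could not be told from the tables, so the fits carry no term for background. The sources used here do not give the embryo stage, the alleles, or whether a library held 1 embryo or a pool. The p-values therefore measure only the spread between these libraries.

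Introns are removed by the spliceosome, which is built from small nuclear RNAs (snRNAs) and proteins. A very short intron is usually recognised as a unit across itself, whereas a long one is found through the exons beside it. The lsm8 gene encodes the member of the nuclear LSm ring that sets it apart from the cytoplasmic ring, and the nuclear ring binds and stabilises U6 snRNA, which helps to form the catalytic core. The snapc3 product is a subunit of the complex that activates transcription of snRNA genes, and the tnpo3 product carries SR splicing proteins into the nucleus. A retained intron is one that stays in the spliced RNA. Retention is given here as the percentage of length-normalised junction reads that include the intron. Because the libraries were made from total RNA, such reads can also come from RNA that is not yet spliced. Whether they came from unspliced RNA or from introns kept in spliced RNA was not tested, so retention below means inclusion in reads only. Differences between groups are in percentage points, mutant minus control. Ratio changes are log2 ratios of inclusion to skipping reads.

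Depth and the mutated genes bear on all of these values. Reads over the members numbered 209186 to 239411 per control library, 230107 to 257645 per snapc3 mutant library, 164823 to 216522 per lsm8 mutant library and 196600 to 238413 per tnpo3 mutant library. Over all introns every lsm8 mutant library, at 332977 to 425613 reads, held fewer than every control library in the same table, at 462622 to 532082. The authors' deposited tables give the mutated genes a log2 fold change in their own mutants of -1.39 for snapc3, -1.51 for tnpo3 and 2.87 for lsm8. Average log2 expression there was 0.0369 for snapc3, 5.10 for tnpo3 and 4.59 for lsm8, so the snapc3 change rests on low expression. Since lsm8 RNA was higher in its mutant, that level does not check the label. The same 3 control libraries enter all comparisons. Libraries are named by their position in the tables, because these positions are not matched to replicate numbers or backgrounds.

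In the controls most introns of 60 bp or less were kept in most length-normalised reads, and most of 70 to 100 bp were spliced out of most such reads. Whether gaps of 60 bp or less are true introns was not tested, and retention there says only that reads included the gap. The settings of the read alignment are not given. How well it found skipping reads over gaps of each length was not tested. Of the 370 members, 85 were 60 bp or shorter, and their control retention had a median of 95.6% (quartiles 87.7 and 99.5%). The inclusion form was longer than the skipping form in 50 of these 85, and their control retention is not given here without form lengths. The 262 members of 70 to 100 bp had a median of 5.18% (quartiles 1.99 and 17.1%). The 23 members of 61 to 69 bp lay between, with a median of 41.9% and quartiles of 5.85 and 98.3%. The 342 longer introns that met the read minimum had a median of 20.2%. Altogether 185 members were retained in under 10% of normalised reads, 99 in at least 90%, and 86 in between. Over all members Spearman's rho between length and control retention was -0.478, and within 70 to 100 bp it was -0.008. These are descriptions across introns that share the same libraries, and introns are not independent replicates.

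**Figure D1:**
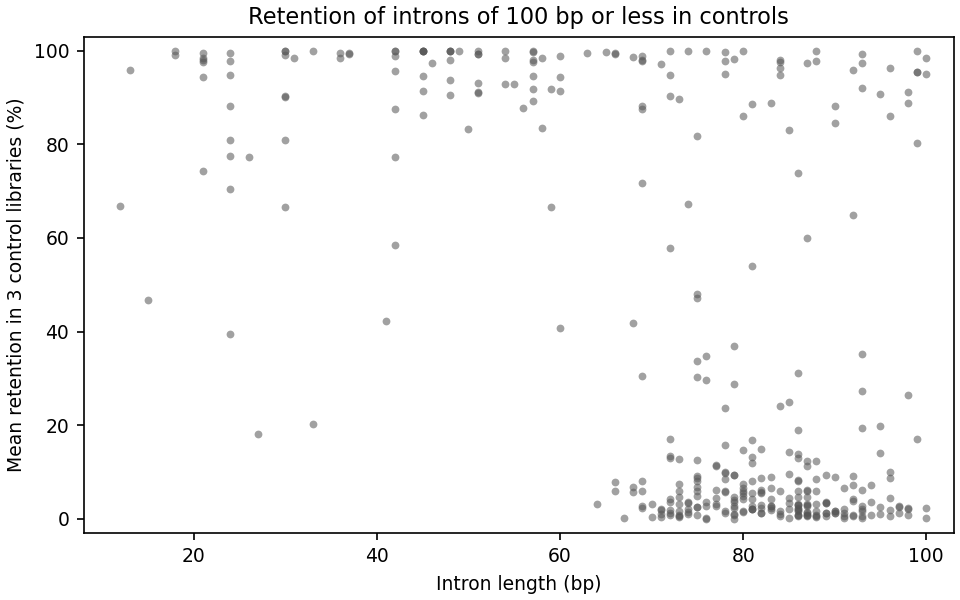
Each point is 1 of the 370 introns of 100 bp or less, with its length in bp on the x axis and its mean retention in the 3 control libraries, in percent, on the y axis. Most introns of 60 bp or less sit near the top and most introns of 70 to 100 bp near the bottom, with medians of 95.6% and 5.18%.

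The length classes also differed in reading frame, which the choice of members did not use. A length divisible by 3 keeps the reading frame when the intron stays in. Of the 85 members of 60 bp or less, 70 (82.4%) had such a length, against 106 of 262 (40.5%) at 70 to 100 bp and 141 of 342 (41.2%) among the longer introns. This is a description with no test. The members lay on 25 chromosomes and scaffolds, with 178 on the plus and 192 on the minus strand. Median flanking exons measured 112 and 116 bp, and those of longer introns 112.5 and 112 bp. Members had a median of 111 reads per library.

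The 3 shortest members averaged 13.2, 10.9 and 47.6 reads per library, from the shortest up. The shortest member was a 12 bp gap in phc1, which encodes a Polycomb group protein (chr16:34261376-34261387, build Zv9, as for all positions here). It averaged 13.2 reads per library and was retained at 75, 68.2 and 57.1% in the controls, 66.7, 0 and 81.8% in snapc3 mutants, 46.2, 0 and 0% in lsm8 mutants and 35.3, 0 and 0% in tnpo3 mutants. Libraries of 1 group thus ranged from 0 to over 80% in phc1, and whether low depth was the cause was not tested. A 15 bp gap in nolc1, a nucleolar phosphoprotein gene, had 52.9, 51.4 and 35.7% in controls and 0, 0 and 55.99% in lsm8 mutants. A 13 bp gap in BSN, the gene of a presynaptic scaffold protein (chr8:55816014-55816026), was retained at 91.9, 97.5 and 98.6% in controls. The chaperone gene hsp90ab1, named after its values were seen, held a 45 bp intron retained at 99.9, 99.9 and 99.8% in controls over 8234 reads per library.

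The lowest control retention among members with at least 50 reads was in eef1da, rpl9 and rps4x. The 76 bp intron of eef1da, an elongation factor subunit, was retained at 0.0244% ± 0.0423 in the controls (mean ± SD, n = 3 libraries, as for all group values below). The 91 bp intron of rpl9 stood at 0.103% ± 0.00268 and the 85 bp intron of rps4x at 0.126% ± 0.0265, both in genes of ribosomal proteins. At the other end, the 49 bp intron of zgc:171759, the 45 bp intron of the myosin gene myo7bb and the 74 bp intron of si:ch211-214c7.4 had 100% retention in all 3 control libraries. An intron just inside the length limit, the 100 bp one of cnn2 (calponin), had a control retention of 2.39% ± 0.7200, and the other, in fxyd6l, 95.1% ± 3.096. Just outside, the 101 bp introns of cyt1 and hbbe1.1 stood at 0.410% ± 0.138 and 0.0944% ± 0.125. Introns at the read limit were the 13 bp BSN gap and a 74 bp intron of si:dkeyp-67f1.2, with 10 reads inside it, and introns of si:ch211-245h14.1 and si:ch211-157j23.5, with 9.83 reads outside it.

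One member is known not to be a spliceosomal intron. The 26 bp intron of xbp1 (chr5:17720055-17720080, minus strand) is cut by the stress sensor IRE1 and joined by a tRNA ligase during the unfolded protein response. It was chosen here after its values were seen. Its retention was 75.5, 73.4 and 83.2% in the controls, 75.3, 80.2 and 79.5% in snapc3 mutants, 85.6, 81.4 and 81.1% in lsm8 mutants and 81.03, 81.4 and 81.6% in tnpo3 mutants. The lsm8 and control libraries overlapped, and the log2 ratio change of 0.46 (SE 0.40, limma adjusted p = 0.519) did not pass.

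Median retention of short introns was higher in every lsm8 mutant library than in any other library, and so was that of introns of 70 to 100 bp alone. Over the 339 members common to the tables, the library medians were 7.86, 8.93 and 10.5% in controls, 7.96, 6.86 and 7.35% in snapc3 mutants, 18.0, 16.1 and 16.1% in lsm8 mutants and 6.90, 5.86 and 7.85% in tnpo3 mutants. Among the 249 common members of 70 to 100 bp the library medians averaged 4.29% ± 0.845 in controls, 4.23% ± 0.265 in snapc3 mutants, 9.87% ± 0.447 in lsm8 mutants and 3.28% ± 0.529 in tnpo3 mutants. Among the 67 common members of 60 bp or less they averaged 94.8% ± 0.570, 94.7% ± 2.11, 94.5% ± 1.31 and 95.1% ± 0.357, and these groups overlapped. No test was made over the members, which share libraries.

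**Figure D2:**
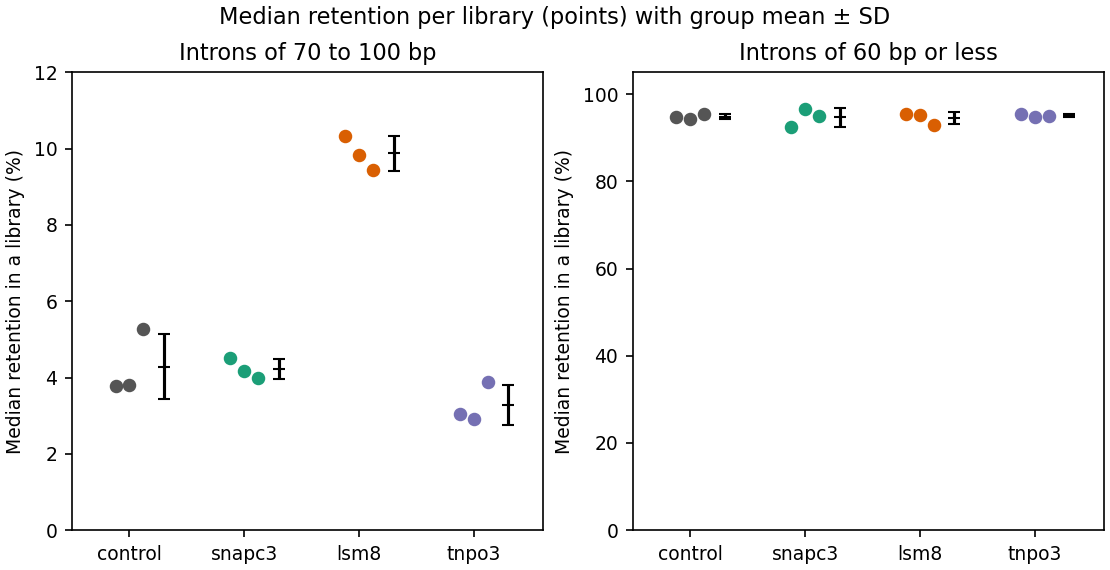
Points are the median retention in percent of each of the 12 libraries, for the 249 common introns of 70 to 100 bp on the left and the 67 of 60 bp or less on the right. Horizontal marks with bars are group means ± SD. On the left the 3 lsm8 mutant libraries sit between 9.44 and 10.3%, and the other 9 between 2.91 and 5.26%. On the right all 12 lie between 92.5 and 96.7%.

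In lsm8 mutants 272 of 351 short introns (77.5%) had a mean retention above the control mean and 79 below, against 71.9% and 28.1% of all introns tested, and the median difference was 2.19 points. The median log2 ratio change was 0.75. For the 326 longer introns the count was 215 and the median difference 0.761 points. In 112 short introns all 3 lsm8 libraries were above all 3 controls and in 7 all were below. Among introns of all lengths 25.7% lay wholly above and 3.84% wholly below. Of the 339 common members, the 3 lsm8 libraries were above all other 9 libraries in 72 and below them in 1, where 15.8% and 0.464% of 646 introns of all lengths were so placed. The corresponding counts were 0 above and 4 below for snapc3 mutants, against 0.464% and 1.55% of introns of all lengths, and 2 above and 12 below for tnpo3 mutants, against 0.619% and 3.87%.

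The lsm8 difference varied with length. From 61 to 69 bp 17 of 23 introns were above the control mean, with a median difference of 1.42 points. From 70 to 79 bp the count was 80 of 86 with 4.44 points. From 80 to 89 bp the count was 89 of 104 with 2.71 points, and from 90 to 100 bp 51 of 63 with 1.79 points. Above the limit it was 52 of 71 with 0.923 points at 101 to 120 bp, 65 of 101 with 0.396 points at 121 to 200 bp and 98 of 154 with 1.01 points at 201 bp or more. Introns of 31 to 60 bp split evenly at 26 of 50, and 9 of 25 introns of 12 to 30 bp were above. Median control retention in these classes was 94.5% and 90.3%. At 70 to 79 bp it was 5.30% and at 80 to 89 bp 4.64%. The median log2 ratio change in lsm8 mutants was -0.21 at 31 to 60 bp and -0.519 at 12 to 30 bp. At 70 to 79 bp that change was 1.26. Whether a high starting level limited the rise in points was not tested. Length and starting level were not separated by a test. Within 70 to 100 bp the share above was alike for lengths that keep the frame (88 of 102) and for the others (65 of 72 and 67 of 79). In snapc3 and tnpo3 mutants no length class from 70 bp up had more than 48.4% of its introns above the control mean, whereas at 61 to 69 bp 14 of 23 (60.9%) were above in each.

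**Figure D3:**
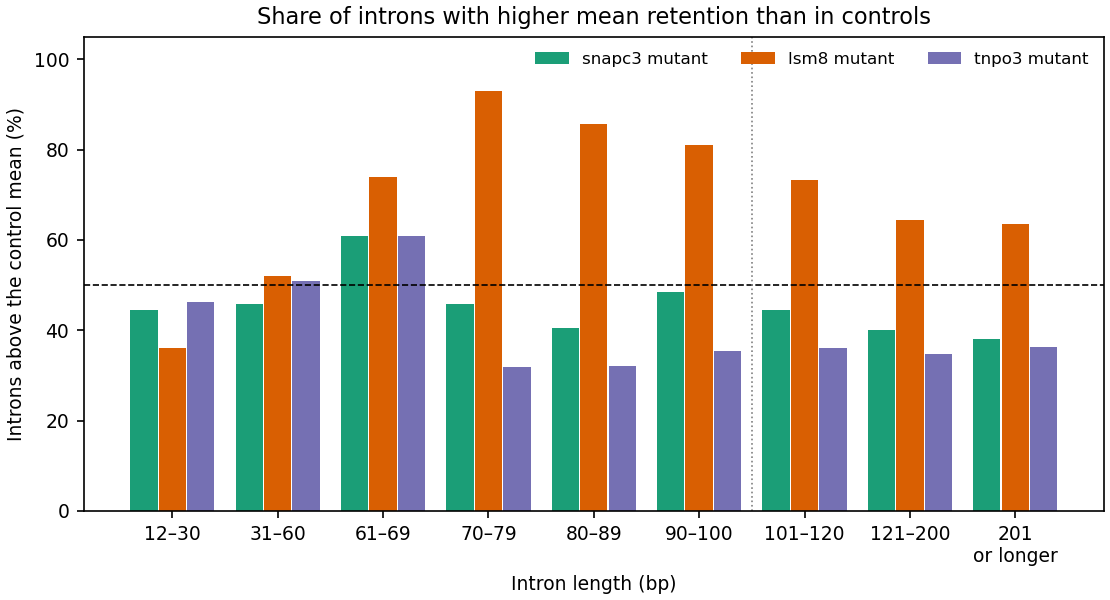
Bars give the percentage of introns whose mean retention was above the control mean, by intron length in bp, for each mutant. The dashed line marks 50% and the dotted line the length limit of 100 bp. The lsm8 bars are highest at 70 to 79 bp, at 93.0%, and the snapc3 and tnpo3 bars stay below the dashed line in every class from 70 bp up. For the introns behind the lsm8 bars, median control retention was 90.3% at 12 to 30 bp and 94.5% at 31 to 60 bp.

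By starting level, the lsm8 difference in points was largest at 10 to 50% control retention and the log2 ratio change was largest below 10%. Of 180 short introns with control retention under 10%, 163 were above the control mean in lsm8 mutants, with a median difference of 2.75 points and a median log2 ratio change of 1.24. The 135 longer introns of that class had 109 above, with 0.799 points and 0.61. Of 48 short introns retained at 10 to 50% in controls 40 were above, with a median difference of 12.5 points and a median log2 ratio change of 1.07. Of 37 at 50 to 90% 24 were above, with 3.79 points and 0.26. Of 86 at 90% or more 45 were above, with 0.138 points and -0.14. Among short introns with at least 50 reads per library 196 of 248 (79.03%) were above the control mean, with a median of 1.87 points and a median log2 ratio change of 0.80. Among those with 10 to 50 reads 76 of 103 (73.8%) were, with 3.79 points and 0.67. The classes of starting level rest on the same control libraries that are subtracted. That choice can shift differences up in low classes and down in high ones, and points are bounded by 0 and 100. Of short introns under 10% in controls, 80 of 183 were above the control mean in snapc3 mutants and 55 of 181 in tnpo3 mutants.

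**Figure D4:**
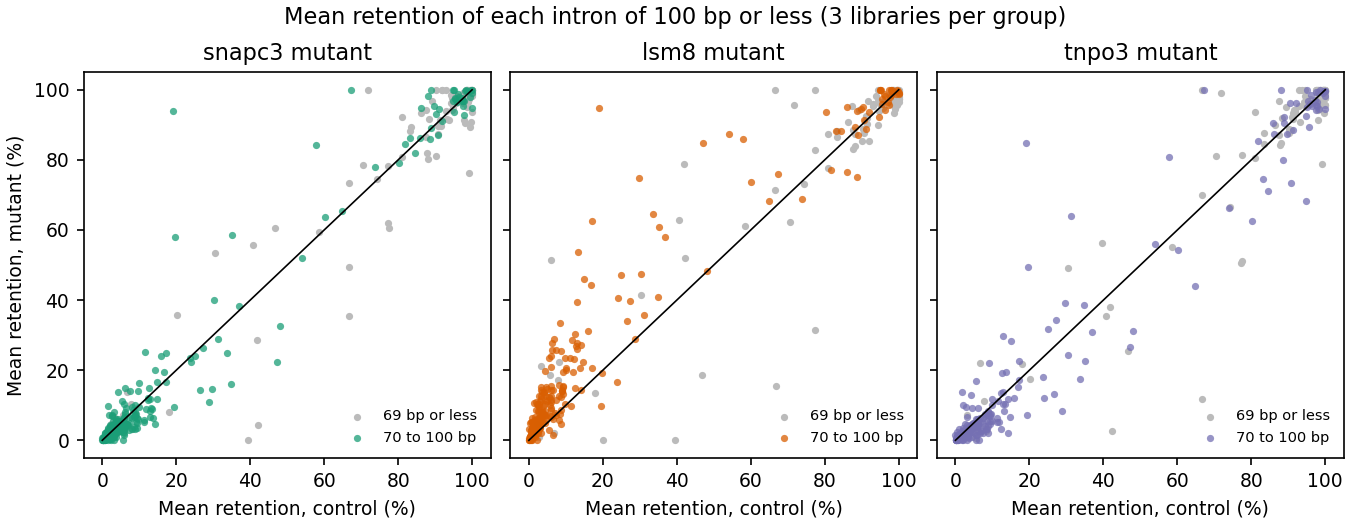
Each point is 1 intron of 100 bp or less, with its mean retention in percent over 3 control libraries on the x axis and over 3 mutant libraries on the y axis. Grey points are introns of 69 bp or less, coloured points introns of 70 to 100 bp, and the line marks equal retention. Of introns of 70 to 100 bp that met the read minimum for the mutant shown, 220 of 253 lie above the line for lsm8. The counts are 113 of 255 for snapc3 and 84 of 256 for tnpo3. A panel can also show introns that met the minimum only for another mutant.

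Tested one by one with limma across all introns of the table, 6 short introns rose in lsm8 mutants by at least 10 points and 0 fell. Over all 677 introns 1.33% were called higher and 0.295% lower. At an unadjusted p below 0.05 there were 96 short introns higher and 7 lower, where 19.9% and 2.95% of all introns passed. The 6 lay in NGRN, C19H6orf52, mlh3, zgc:136439, pggt1b and treh, were 64 to 86 bp long, and none had overlapping lsm8 and control libraries. Leaving out any 1 of the 6 libraries ended all 6 calls, and so did a quasi-binomial model of the counts.

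NGRN encodes neugrin, a mitochondrial protein needed for the mitochondrial ribosome. Its 66 bp intron (chr8:25889496-25889561, plus strand) was retained at 1.39, 4.28 and 11.9% in the controls, 5.54, 5.81 and 5.98% in snapc3 mutants, 47.6, 69.6 and 36.98% in lsm8 mutants and 1.32, 9.79 and 6.77% in tnpo3 mutants. In the first lsm8 library 25 and 14 reads included and skipped it, against 1 and 36 in the first control. All 3 lsm8 libraries stood above the other 9, and the rise was 45.5 points with a log2 ratio change of 4.31 (SE 0.81, limma adjusted p = 0.0466).

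The 72 bp intron of C19H6orf52, a gene of unknown role (chr19:30383853-30383924, minus strand), was retained at 11.01, 14.5 and 14.5% in the controls, 10.7, 7.89 and 8.33% in snapc3 mutants, 66.3, 55 and 40% in lsm8 mutants and 10.3, 12.5 and 8% in tnpo3 mutants. The lsm8 libraries again stood above the other 9. The rise of 40.4 points corresponded to a log2 ratio change of 2.90 (SE 0.48, limma adjusted p = 0.0459). In mlh3, which encodes a DNA mismatch repair protein that also acts in meiotic crossing over, the 81 bp intron (chr23:24879352-24879432, plus strand) was retained in over 40% of normalised reads in every library. Its values were 56.5, 60.98 and 44.7% in the controls, 42.3, 50 and 63.6% in snapc3 mutants, 87.3, 87.5 and 87.2% in lsm8 mutants and 58.6, 40.4 and 69.2% in tnpo3 mutants. The 3 lsm8 libraries lay within 1 point of each other and above all the rest, with a log2 ratio change of 2.44 (SE 0.38, limma adjusted p = 0.0459).

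The 73 bp intron of zgc:136439 (chr9:42155310-42155382, plus strand) was retained at 7.21, 5.79 and 4.803% in the controls, 9.73, 10.1 and 11.3% in snapc3 mutants, 29.03, 25.3 and 18.05% in lsm8 mutants and 4.67, 4.35 and 4.35% in tnpo3 mutants. Here the order of the groups was tnpo3, control, snapc3 and lsm8, with no overlap between neighbours, and the lsm8 log2 ratio change was 2.28 (SE 0.39, limma adjusted p = 0.0459). A second short intron of the same gene, 83 bp long, stood at 2.36, 0 and 3.03% in controls and 11.6, 6.45 and 7.69% in lsm8 mutants and was not called (limma adjusted p = 0.142). The 64 bp intron of pggt1b, the beta subunit gene of an enzyme that adds lipid anchors to proteins (chr8:467718-467781, plus strand), was retained at 1.403, 3.69 and 4.49% in the controls, 2.89, 9.34 and 8.06% in snapc3 mutants, 30.01, 13.5 and 19.7% in lsm8 mutants and 6.84, 12.2 and 2.34% in tnpo3 mutants. Its lsm8 libraries exceeded every other library, with a log2 ratio change of 2.85 (SE 0.54, limma adjusted p = 0.0466).

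The treh intron stood apart from the other 5. The gene encodes trehalase, which splits the sugar trehalose, and the 86 bp intron (chr18:42266989-42267074, minus strand) averaged only 14.7 reads per library. Its retention was 11.1, 39.1 and 6.98% in the controls, 81.8, 100 and 100% in snapc3 mutants, 100, 100 and 84.6% in lsm8 mutants and 83.3, 100 and 71.4% in tnpo3 mutants. All 9 mutant libraries were above all 3 controls. The lsm8 log2 ratio change of 5.76 (SE 0.89, limma adjusted p = 0.0459) depends on the pseudocount, because 2 of the 3 lsm8 libraries had 0 skipping reads. In snapc3 and tnpo3 mutants the same intron did not pass limma (adjusted p = 0.403 and 0.219). The authors' deposited FDR for it was 0.000274 in snapc3 and 0.00361 in tnpo3 mutants.

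**Figure D5:**
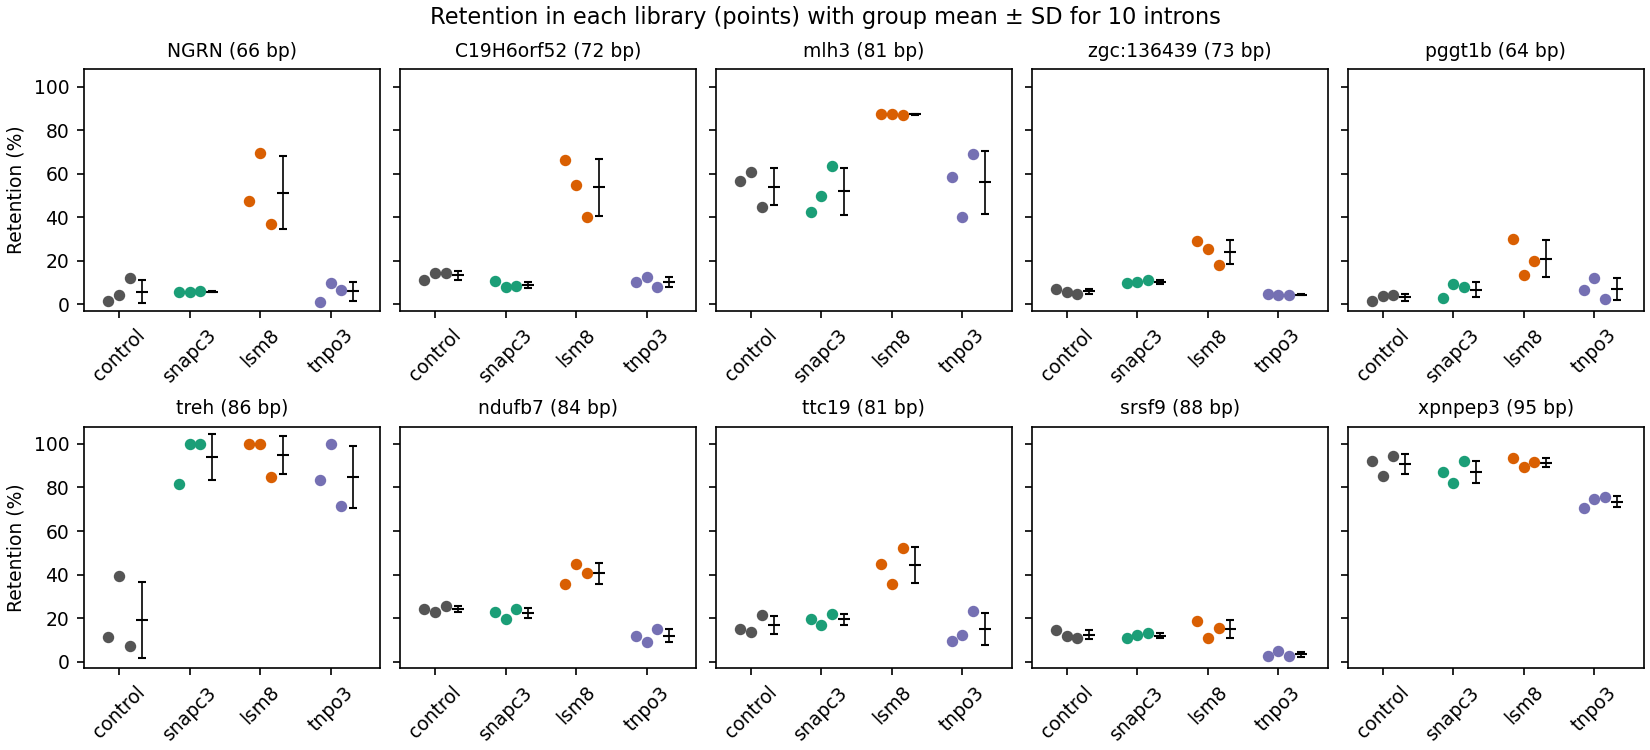
Each panel is 1 short intron, with its length in bp in the title. Points are retention in percent in each of the 12 libraries by group, and marks with bars are group means ± SD (n = 3). In the first 5 panels the lsm8 points lie above all others. In the treh panel all mutants lie above the controls. In the ndufb7, srsf9 and xpnpep3 panels the tnpo3 points lie below all others.

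Without the minimum of 10 points limma called 15 of 351 short introns in lsm8 mutants, where 3.1% of introns of all lengths were called, and the 9 added are named here after their values were seen. They include 7 introns of low control retention. The 71 bp intron of ppt1, a lysosomal thioesterase gene, had 0.461, 0.575 and 0.286% in controls and 4.96, 3.75 and 6.205% in lsm8 mutants, a log2 ratio change of 3.38 (SE 0.44, limma adjusted p = 0.03795). The 73 bp intron of ubr4, a ubiquitin ligase gene, had 1.49, 0.472 and 0.575% and 8.01, 4.79 and 6.29%. The 75 bp intron of pcyt2, an enzyme gene of phosphatidylethanolamine synthesis, had 2.59, 2.83 and 2.35% and 11.7, 9.07 and 9.17%. In these 3 genes the libraries of the 2 groups were far apart, although at most 11.7% of normalised reads kept the intron.

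Of the other 6, ypel3 stood at 3.29, 3.38 and 2.48% in controls and 14.2, 9.19 and 10.6% in lsm8 mutants. The small GTPase gene rhoaa stood at 0.4401, 0.585 and 0.772% and 2.598, 2.37 and 3.396%. The ribosomal protein gene rps4x, with 19450 reads per library, stood at 0.156, 0.116 and 0.106% and 0.491, 0.601 and 0.463%, a log2 ratio change of 2.05 (SE 0.39, limma adjusted p = 0.0466). The difference of 0.392 points in rps4x passed at that depth, and the median member had 111 reads per library. The intron of aox3 rose from 0.456% ± 0.397 to 5.22% ± 2.13 and that of fxyd6l from 95.1% ± 3.096 to 100% in all 3 lsm8 libraries, where 0 skipping reads make the fitted change depend on the pseudocount. For gpn2 the fitted change and the difference in retention had opposite signs, at a log2 ratio of 2.72 and -1.08 points, with nearly no skipping reads in either group.

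The authors' deposited FDR gave more calls. With the same minimum of 10 points it passed for 43 short introns in the lsm8 table, 42 higher and 1 lower, where 8.71% of all introns were higher and 1.62% lower in the authors' deposited table. Examples with the smallest values are the 84 bp intron of ndufb7, a subunit of respiratory complex I, and the 81 bp intron of ttc19, an assembly factor of complex III. The ndufb7 intron (chr1:56325388-56325471, minus strand) had 23.96, 22.8 and 25.5% in controls and 35.7, 44.9 and 40.9% in lsm8 mutants. The ttc19 intron (chr2:32197677-32197757, minus strand) had 15.2, 13.6 and 21.5% and 45.1, 35.6 and 52.1%. In both genes the lsm8 and control libraries did not overlap, and neither passed limma (adjusted p = 0.119 and 0.0681).

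The 7 short introns whose lsm8 libraries were all below the controls are named after their values were seen, and limma called 0 of them. Their control retention was above 60% except in PDE4DIP. The 69 bp intron of PDE4DIP, a Golgi and centrosome scaffold gene, had 2.52, 2.92 and 2.48% in the controls, 4.88, 1.41 and 2.22% in snapc3 mutants, 1.03, 0.927 and 0.961% in lsm8 mutants and 1.62, 3.59 and 1.38% in tnpo3 mutants, and was the 1 common member with lsm8 libraries below all other 9 (limma adjusted p = 0.0906). The 75 bp intron of jupa, a junction plakoglobin gene, had 83.1, 81.4 and 80.7% in controls and 74.5, 78.3 and 78.6% in lsm8 mutants. The others were the phc1 gap, introns of 18 to 60 bp in rbm28, lrrk2 and ptpn1, and a 96 bp intron of si:dkey-246g23.4, with differences of -4.602, -3.87, -5.49 and -9.53 points in that order of genes after phc1 at -51.4.

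In tnpo3 mutants short introns lay below the control mean more often than above it, and so did introns of all lengths. Of 356 short introns 136 (38.2%) were above the control mean and 220 below, against 37% and 63% of all introns, and the median difference was -0.310 points. All 3 tnpo3 libraries were above all controls in 17 short introns and below in 37, where 4.15% and 12.6% of all introns were so placed. Limma called 0 short introns, with 0% of all introns called in either direction. At an unadjusted p below 0.05 it had 12 higher and 21 lower, where 2.67% and 6.07% of all introns passed, and the quasi-binomial model called 0. By the authors' deposited FDR 4 were higher and 10 lower, where 1.04% and 3.56% of all introns passed in the authors' deposited table.

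Introns of srsf9 and rbm39a had tnpo3 libraries below all others. The 88 bp intron of srsf9, which encodes an SR protein of the kind that the tnpo3 product imports (chr10:1721260-1721347, minus strand), had 14.7, 11.8 and 10.6% in the controls, 10.7, 12.2 and 12.9% in snapc3 mutants, 18.7, 10.8 and 15.6% in lsm8 mutants and 2.65, 4.74 and 2.69% in tnpo3 mutants. All 3 tnpo3 libraries were below the other 9, with a log2 ratio change of -2.02 (SE 0.46, limma adjusted p = 0.219). A 92 bp intron of rbm39a, a splicing factor gene related to U2AF (chr11:25272972-25273063, plus strand), had 68.5, 59.8 and 66.3% in the controls, 67.6, 60.1 and 68.3% in snapc3 mutants, 70.8, 64.7 and 69.5% in lsm8 mutants and 40.8, 46.9 and 44.4% in tnpo3 mutants. The tnpo3 libraries were again below the other 9, with a difference of -20.8 points from the controls and a log2 ratio change of -1.23 (SE 0.38, limma adjusted p = 0.324).

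The 95 bp intron of xpnpep3, a mitochondrial aminopeptidase gene, had 92.3, 85.4 and 94.3% in controls and 70.5, 74.6 and 75.6% in tnpo3 mutants. The ndufb7 intron, high in lsm8 mutants, stood lower in tnpo3 mutants at 11.9, 8.901 and 15.1%. A 79 bp intron of si:dkey-147f3.8 was low in tnpo3 mutants at 6.25, 10 and 8.77% and in snapc3 mutants at 11.5, 13.6 and 7.69%, against 24.7, 26.03 and 35.7% in controls. In xpnpep3, ndufb7 and si:dkey-147f3.8 the tnpo3 and control libraries did not overlap, and limma's adjusted p was 0.257, 0.421 and 0.219.

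Higher in tnpo3 mutants was the 86 bp intron of kitb, a receptor tyrosine kinase gene, at 26.7, 36 and 26.4% against 12.9, 12.9 and 13.04% (limma adjusted p = 0.267). The kitb intron was also above all controls in lsm8 mutants, at 58.3, 28.9 and 30.9%. In snapc3 mutants it stood at 5.75, 14.3 and 5.26%. The 72 bp intron of knop1, a nucleolar protein gene, had 41.2, 65.7 and 66.7% in the controls, 80, 80.6 and 92% in snapc3 mutants, 92.3, 90.2 and 75% in lsm8 mutants and 86.2, 70 and 86.7% in tnpo3 mutants. All 9 mutant libraries were above the 3 controls in knop1, as in treh. The 86 bp intron of ttpa, the tocopherol transfer protein gene, had 41.2, 24 and 28.4% in controls and 48.7, 100 and 42.9% in tnpo3 mutants, where the second library stood alone at 100%. The 12 common members with tnpo3 libraries below all other 9, named after their values were seen, were those of srsf9, rbm39a, xpnpep3, ndufb7, zgc:136439, ttll1, ltk, bin2a, epas1a, cap1 and cnn2 and 1 intron of a gene with no symbol.

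In snapc3 mutants short introns lay on both sides of the control mean in similar numbers. Of 353 short introns 161 (45.6%) were above the control mean and 192 below, against 43% and 57% of all introns, and the median difference was -0.138 points. All 3 snapc3 libraries were above all controls in 26 short introns and below in 18, where 7.11% and 8.15% of all introns were so placed. Limma called 0 short introns, with 0% of all introns called in either direction. At an unadjusted p below 0.05 it had 13 higher and 11 lower, where 4.3% and 5.04% of all introns passed, and the quasi-binomial model called 0. The authors' deposited FDR passed for 3 higher and 3 lower, where 0.889% and 1.63% of all introns passed in the authors' deposited table.

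Among short introns with at least 20 reads per library, the largest snapc3 differences with separate libraries were in introns of few reads. They include the knop1 and si:dkey-147f3.8 introns described above, at 26.4 and -17.9 points. The treh intron, below that read minimum, differed by 74.9 points. The 95 bp intron of clec16a, an endosomal protein gene with 37.1 reads per library, had 14.3, 38.8 and 6.17% in controls and 69.2, 52.4 and 52.4% in snapc3 mutants (limma adjusted p = 0.465). The 30 bp intron of BSN had 80.5, 85.4 and 76.9% and 87.2, 97.7 and 92.2%. The 90 bp intron of PTCHD2 had 85.7, 89.2 and 89.5% and 100, 94.6 and 100%. Lower was the 21 bp intron of lrrk2, a kinase gene, at 95.7, 79.2 and 93.5% against 100, 100 and 98.6%. The lrrk2 intron was also below all controls in lsm8 mutants (96.9, 96.7 and 93.5%) and tnpo3 mutants (88.2, 96.4 and 95.1%). In tnpo3 mutants the intron of PTCHD2 stood at 100% in all 3 libraries and that of clec16a at 40, 80 and 28.3%. In lsm8 mutants they stood at 91.7, 80.95 and 95.6% and at 14.3, 17.5 and 25.5%. Mean retention of the 30 bp BSN intron was 87.4% in lsm8 and 93.6% in tnpo3 mutants. The 18 bp intron of rbm28 had one of the smallest deposited FDR values, but its snapc3 libraries stood at 64.1, 100 and 64.5% against 98.9, 99.3 and 99.3% in controls, so 1 of them was above every control.

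When mutants were compared with each other, most short introns that were called were higher in lsm8 mutants. These contrasts used all 12 libraries and the 650 introns listed in all 3 tables that averaged at least 10 reads over the 12 libraries, of which 341 were short. Limma called 23 short introns between lsm8 and snapc3 mutants, 21 of them higher in lsm8 mutants, where 4.15% of all introns were called higher and 0.462% lower. Between lsm8 and tnpo3 mutants it called 40, with 37 higher in lsm8 mutants, where 7.69% and 1.08% of all introns were called. Both contrasts share the lsm8 libraries, and 18 short introns were called in both and 45 in either. The share of introns of all lengths called in both or in either is not given here. Between tnpo3 and snapc3 mutants limma called 0 short introns and 0.154% of all introns higher and 0% lower. A quasi-binomial model gave 21, 30 and 2. Without the first lsm8 library the counts against snapc3 and tnpo3 mutants were 1 and 10, without the second 6 and 22, and without the third 16 and 22. Without the first, the second or the third snapc3 library the count against snapc3 mutants was 10, 10 or 3, and without the second tnpo3 library the count against tnpo3 mutants was 19.

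Of the 6 introns called against controls, those of NGRN, C19H6orf52, mlh3 and zgc:136439 were called in both contrasts and those of pggt1b and treh in neither. The log2 ratio of NGRN in lsm8 mutants exceeded that in snapc3 mutants by 3.94 (SE 0.80, limma adjusted p = 0.0196) and that in tnpo3 mutants by 4.20 (SE 0.80, limma adjusted p = 0.0104). For C19H6orf52 the values were 3.54 (SE 0.43, limma adjusted p = 0.00153) and 3.34 (SE 0.43, limma adjusted p = 0.00233).

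Introns called between mutants also lay in ift20, tmem67 and ttll1. The 69 bp intron of ift20, a gene of intraflagellar transport, had 8.39, 4.21 and 11.9% in the controls, 4.72, 2.55 and 2.82% in snapc3 mutants, 26.6, 16.8 and 23.4% in lsm8 mutants and 3.91, 0.292 and 4.06% in tnpo3 mutants. The 81 bp intron of tmem67, which encodes a protein of the ciliary transition zone, had 10.7, 14.8 and 14.97% in lsm8 mutants and at most 5.97% in any other library. The 68 bp intron of ttll1, a tubulin polyglutamylase gene, had 19.4, 9.68 and 27.3% in lsm8 and 0.917, 0.709 and 0% in tnpo3 mutants. In all 3 genes the lsm8 libraries were higher than those of the mutants they were called against.

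Others called lay in eed, gtf2a1, smc5 and smek1. The 73 bp intron of eed, a Polycomb complex gene, had 0, 0 and 2.86% in snapc3 and 17.6, 5.26 and 20.4% in lsm8 mutants. The 82 bp intron of gtf2a1, a subunit of the general factor TFIIA, had 7.09, 10.3 and 8.95% in the controls, 7.96, 6.62 and 9.55% in snapc3 mutants, 24.2, 32.6 and 19.4% in lsm8 mutants and 4.41, 8.51 and 11.2% in tnpo3 mutants. The 93 bp intron of smc5, a gene of chromosome maintenance, had 16.7, 18 and 8.03% in lsm8 mutants and 2.26 to 8.82% in the other libraries. The lsm8 libraries of gtf2a1 were above all others, and those of eed and smc5 overlapped the controls. The 78 bp intron of smek1, a regulatory subunit gene of protein phosphatase 4, had 22.7, 18.02 and 19.1% in lsm8 mutants against 8.53 to 11.2% elsewhere.

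Calls were also made in vps52, atp6v0a2b and gga3. The 79 bp intron of vps52, a gene of the tethering complex for retrograde transport, had 8.795, 6.53 and 12.6% in the controls, 6.95, 6.83 and 5.15% in snapc3 mutants, 23.3, 21.5 and 13.9% in lsm8 mutants and 6.14, 5.36 and 5.06% in tnpo3 mutants. The 74 bp intron of atp6v0a2b, a subunit gene of the vacuolar proton pump, had 7.81, 16.3 and 13.4% in lsm8 and 0, 2.22 and 0.8403% in tnpo3 mutants. The 24 bp intron of gga3, a Golgi adaptor gene, split between libraries of 1 group, with 100, 32.9 and 99.4% in the controls, 45.6, 100 and 35.7% in snapc3 mutants, 100, 100 and 100% in lsm8 mutants and 47.5, 45.8 and 60.2% in tnpo3 mutants. Of the 5 short introns called lower in lsm8 mutants in the 2 contrasts, those of sort1a and sqstm1 were at 100% in all snapc3 libraries and that of PTCHD2 at 100% in all tnpo3 libraries. Their fitted changes depend on the pseudocount. The second lsm8 library had 0 reads over the sort1a intron, so its lsm8 mean rests on 2 libraries and the fit took a ratio from the pseudocount there. Without that library for this intron the log2 ratio change from snapc3 mutants was -3.72, against -4.58 with it, and the call held. The other 2, in TRIM47 and kdm6al, averaged 13.6 and 28.3 reads.

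The gene with most members was rbm39a, with 4, and their retention is given one by one. The lsm8 libraries of its introns of 81, 73 and 92 bp at chr11:25276567-25276647, chr11:25277018-25277090 and chr11:25277651-25277742 were all above the controls, at 26.01% ± 2.01 against 13.1% ± 6.32, 15.2% ± 2.24 against 4.75% ± 3.54, and 9.69% ± 2.42 against 3.85% ± 1.66. The 81 and 73 bp introns were called between lsm8 and both other mutants. The fourth, the 92 bp intron low in tnpo3 mutants, stood at 68.3% ± 3.25 in lsm8 mutants and 64.9% ± 4.51 in controls. In all, 16 genes held 2 or more members. Some of these share reads, such as 2 introns of si:dkeyp-33e11.1 and 2 of rab34a that start 3 bases apart, and such pairs do not count as separate evidence.

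The 9 gene lists examined held few members, and they do not hold every gene of their kind, for instance rbm39a. Of these, the lists for the minor spliceosome, snRNA transcription and snRNP assembly, RNA decay and T lymphocytes had 0 members. The core spliceosome list had 2. In sf3a2, a U2 snRNP protein gene, the 91 bp intron (chr2:58649291-58649381, minus strand) had 1.28, 1.099 and 1.37% in the controls, 2.33, 1.500 and 3.18% in snapc3 mutants, 3.82, 3.53 and 3.62% in lsm8 mutants and 0.558, 2.91 and 1.33% in tnpo3 mutants. The lsm8 libraries exceeded the other 9, and the log2 ratio change was 1.52 (SE 0.36, limma adjusted p = 0.0749). The 50 bp intron of luc7l, a U1-associated factor gene, was retained at 83.3% ± 4.09 in controls and 88.2% ± 1.66 in lsm8 mutants.

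The SR protein list had 2 members, in srsf9 and srsf2a. The 42 bp intron of srsf2a stood at 87.6% ± 2.36, 86.4% ± 3.403, 88.4% ± 1.91 and 87.1% ± 3.88 in the control, snapc3, lsm8 and tnpo3 groups. The LSm list had 1 member, a 65 bp intron of lsm14aa, retained at 99.6% ± 0.632 in controls, and the hnRNP list had 2, in hnrnpl2, retained at 100% in all 3 control libraries, and hnrnpm, at 92.96% ± 12.2 in controls. The DNA repair list had 4 members, and all 4 were above the control mean in lsm8 mutants with a median difference of 6.14 points, where 71.9% of all introns were above it. They were the called mlh3 intron and introns of TP53BP1, a gene of the double-strand break response, apex1, a base excision repair nuclease gene, and ercc5, a nucleotide excision repair nuclease gene at 98.5% ± 2.57 in controls and 98.7% ± 2.28 in lsm8 mutants. The 80 bp TP53BP1 intron had 4.65, 3.82 and 6.19% in controls and 16.7, 14.3 and 12.7% in lsm8 mutants, and limma called it between lsm8 and tnpo3 mutants. The 42 bp apex1 intron had 64.6, 53.6 and 57.3% and 64.3, 54.6 and 64.4%, which overlapped.

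Most genes with a short retained intron were not listed as changed in expression. The authors' deposited tables hold genes past their thresholds only, so a gene that is absent is not shown to be unchanged. Of 333 member genes in lsm8 mutants 2 were listed higher and 5 lower, where 1.14% and 2.45% of genes with any tested intron were listed. In the authors' deposited table sf3a2 stood 2.03 higher on the log2 scale (SE 0.06, adjusted p = 0.000466 by their limma fit) and gpn2 1.62 higher (SE 0.12, adjusted p = 0.00443 by their limma fit). Listed lower were chia.3, ccbl1, ptgr1, idh1 and opn1lw2, with log2 fold changes from -3.09 to -1.05 in the authors' deposited table. In whole embryos fewer cells of a type and less RNA per cell cannot be told apart.

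In the snapc3 table sf3a2 was listed higher, at 1.22 in the authors' deposited table, and chia.3 lower among 335 member genes, where 0.654% and 1.14% of genes were listed. In tnpo3 mutants 0 of 338 were listed higher and chia.3 lower, where 0.163% and 0.49% were listed. None of the genes of the 6 introns called in lsm8 mutants was listed. A skipped exon at a deposited FDR below 0.05 and at least 10 points was present in 11 of 335, 10 of 333 and 19 of 338 member genes for snapc3, lsm8 and tnpo3, where 3.43%, 3.92% and 5.88% of genes with any tested intron had one in the authors' deposited tables.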

How the data were processed

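The 12 libraries, 3 per group, were grouped by genotype as the labels give it. The submitters' processing notes name build Zv9 and the tools limma 3.26.3, featureCounts 1.4.5-p1, TopHat2 2.0.13 and Bowtie2 2.2.3, without settings. The splicing tool with its strand option was not given in the sources used here. Per the file headers, the deposited retained-intron tables give inclusion and skipping junction counts per library, both form lengths, a deposited p-value and FDR, and a difference score (control minus mutant inclusion level). Per the file headers, the deposited expression tables give log2 fold change, average log2 expression, a moderated test score and p-values, and list only genes past the authors' thresholds. The SE printed with a deposited fold change is that change divided by the deposited score. The control columns were identified because their counts were identical in all 713, 720 and 718 events that pairs of tables share.

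Retention was computed as inclusion reads divided by inclusion form length, over that value plus skipping reads divided by skipping form length. Form lengths were 120 and 60 in 189 members. In 33 members the inclusion form length is below the skipping form length, which raises their retention. Tested introns averaged 10 or more reads a library, with 1 or more of each form. In R 4.3.3, limma 3.58.1 with its trend and robust options was fitted to log2 inclusion over skipping, each divided by form length after adding a pseudocount of 0.5. A call needed a Benjamini-Hochberg adjusted p below 0.05 over all introns of the table and a change in mean retention of 10 points or more. Each mutant was fitted with the controls alone, and mutants were compared in 1 fit of 12 libraries. Library order within a table is not matched to replicate numbers, so background and pairing could not enter a fit. Junction reads without molecular identifiers are not independent molecules. Tables were made in Python 3.11.15 with pandas 2.3.3. No sequence is printed, because no genome of this build was used here.

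The members, the length classes and the 9 gene lists were chosen with earlier results of these data known. Introns named are all limma calls, 6 per mutant with the largest differences and separate libraries at 20 or more reads, 4 per mutant with the smallest deposited FDR, up to 3 per list, the 3 shortest, 2 at each side of the length limit, and the highest and lowest control retention at 50 or more reads. Not every intron under this rule is described, and exceptions are marked in the text.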

Additional observations from a re-analysis of the deposited data

Results flagged for a closer look

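Short introns differed between mutants under the same contrast with controls, by limma's test of the difference itself, in 23 cases between lsm8 and snapc3 mutants and in 40 between lsm8 and tnpo3 mutants. Over introns of all lengths 4.15% and 7.69% were called higher in lsm8 mutants in these contrasts, and 0.462% and 1.08% lower. The values below are differences of mean retention in percentage points, lsm8 mutant minus the other mutant, and each passed at a Benjamini-Hochberg adjusted p below 0.05 over 650 introns. The mutants compared here differ in mixed background as well as in mutation, and no fit had a term for background. The second lsm8 library had 0 reads over the sort1a intron.

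In both contrasts 18 short introns were called, all higher in lsm8 mutants, and the share over introns of all lengths is not given here. The 5 introns with the widest gaps in both contrasts were those of si:ch211-218d20.15, NGRN, C19H6orf52, wbscr27 and mlh3, with differences from snapc3 mutants of 50.2, 45.6, 44.8, 37.7 and 35.4 points and from tnpo3 mutants of 40.95, 45.4, 43.5, 39.9 and 31.3 points. Next in size were those of rassf4, ttc19, kri1 and ift20, with differences from snapc3 mutants of 26.9, 24.8, 19.6 and 18.9 points and from tnpo3 mutants of 28.1, 29.2, 20.7 and 19.5 points. Of these introns, that of rassf4 averaged only 17.7 reads per library. Between these 4 and the smallest were those of ndufb7, gtf2a1, the 81 bp intron of rbm39a and zgc:136439, with differences from snapc3 mutants of 18.2, 17.3, 16.8 and 13.8 points and from tnpo3 mutants of 28.5, 17.4, 17.7 and 19.7 points. The smallest gaps called in both were those of vps52, the 73 bp intron of rbm39a, smc5, smek1 and tmem67, with differences from snapc3 mutants of 13.3, 12.4, 10.6, 10.6 and 10.6 points and from tnpo3 mutants of 14.1, 11.5, 11.4, 10 and 10.2 points.

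Against snapc3 mutants alone, introns of si:ch211-229g11.5, kitb and eed were higher in lsm8 mutants by 60.2, 30.9 and 13.5 points, and those of sort1a and sqstm1 had differences of -11.1 and -14.5 points. Against tnpo3 mutants alone, the widest gaps were in si:dkeyp-33e11.1, gga3, ufsp2, myo9ab, the 92 bp intron of rbm39a and si:ch211-80h18.1, at 58.5, 48.8, 27.2, 26.2, 24.3 and 23.2 points. The si:dkeyp-33e11.1 intron averaged only 14.9 reads per library, and its control libraries stood at 10.2, 31.25 and 100%. It shares reads with a second intron of that gene. Smaller ones were in uap1l1, rpl10a, ltk, ttll1, xpnpep3 and kdm8, at 19.6, 19.5, 19.2, 18.2, 17.9 and 15.4 points. The remaining introns higher in lsm8 mutants were those of ubtfl, TP53BP1, srsf9, atp6v0a2b, baxa, acot9.1 and mettl2a, at 14.3, 12.4, 11.7, 11.5, 11.03, 10.7 and 10.7 points. Lower in lsm8 than in tnpo3 mutants were introns of PTCHD2, TRIM47 and kdm6al, with differences of -10.6, -12.7 and -20.01 points. A call in 1 contrast and not in the other does not show that snapc3 and tnpo3 mutants differed.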

How the results depend on the processing

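No paired analysis was possible because the columns carry no replicate numbers. Counts of calls depended on the settings. The authors' deposited FDR with 10 points gave 17, 70 and 31 introns of all lengths and 6, 43 and 14 short ones in snapc3, lsm8 and tnpo3 mutants, against 0, 11 and 0 and 0, 6 and 0 by limma. For lsm8 mutants against controls, the counts over all introns and over short ones were 21 and 15 with no minimum difference, 0 and 0 with no read minimum, 7 and 0 with the quasi-binomial model, 20 and 11 with a pseudocount of 2, and 18 and 10 with all 4 groups in the fit. With a minimum of 20 points 7 introns of all lengths were called. Between lsm8 and snapc3 mutants the 23 short introns became 42 with no minimum difference, 9 at 20 points, 15 with no read minimum, 36 with a pseudocount of 2 and 13 at a length limit of 80 bp. Between lsm8 and tnpo3 mutants the 40 became 75, 16 at 20 points and 23 at 80 bp. For contrasts between mutants, counts over introns of all lengths under these settings are not given here. Between tnpo3 and snapc3 mutants 0 became 2 at 20 reads, 2 with the quasi-binomial model and 1 with libraries of 0 reads left out, an alternative chosen after seeing the data. The cause was not tested, apart from the smaller sets that a shorter length limit or a larger minimum leaves.

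Leaving out 1 library in turn, calls over all introns ranged from 0 to 2 in each mutant against controls, and calls of short introns from 0 to 1, 0 to 1 and 0 to 2 in snapc3, lsm8 and tnpo3 mutants. They ranged from 1 to 29 between lsm8 and snapc3, 0 to 1 between tnpo3 and snapc3 and 10 to 41 between lsm8 and tnpo3 mutants. Median differences of short introns ranged from -0.189 to -0.0129, 1.70 to 2.31 and -0.396 to -0.192 points, and the share above the control mean, an alternative chosen after seeing the data, from 42.8 to 48.3%, 73.2 to 75.6% and 36.9 to 42.3%. The lsm8 median was 2.10 points at 20 reads, 2.25 with no read minimum, 2.38 with raw counts, 1.87 at 80 bp and 1.84 at 120 bp, and its share above was 72.2% at 80 bp. The snapc3 median was -0.261 points with raw counts. For the introns named by the rule, 1776 alternative values kept their direction, of which 368 no longer passed and 22 newly passed.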
